A study of Homo sapiens with 2 samples.

Results

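KISS1R, the gene of the kisspeptin receptor, and 6 adenylate cyclase genes (ADCY1, ADCY3, ADCY6, ADCY7, ADCY8 and ADCY9) were described in FTC-133 cells, an established human line from a follicular thyroid carcinoma. They are 7 of the 19362 genes in the table, taken by symbol. They are the receptor and the cyclase genes whose CPM averaged 1 or more over both libraries. CPM are reads scaled by a factor for each library. The members were chosen by their CPM in these same libraries, so their values and folds are a description and no test is given for them. One group was transfected with siRNA against CHI3L1, the gene of the secreted glycoprotein YKL-40, and the other with a control siRNA, with 1 RNA sequencing library per group. The siRNA sequences, the time after transfection and the number of cultures behind a library were not given in the sources used here. There are no replicates, so no difference could be set against a spread between cultures, and every statement is about this pair of libraries.

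Adenylate cyclases make the second messenger cyclic AMP from ATP. The membrane-bound forms are stimulated by the G protein alpha subunit Gs and differ in their response to calcium, to inhibitory G proteins and to G beta-gamma subunits. In thyroid follicular cells, the receptor of thyroid-stimulating hormone acts mainly through this pathway. The kisspeptin receptor couples mainly to the Gq class, which activates phospholipase C beta and releases calcium from internal stores. Its ligand comes from KISS1, a gene first described as a suppressor of melanoma metastasis, and the receptor is best known for its role in the neurons that drive puberty.

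Reads of the genes in the table, recovered from the deposited CPM, summed to 19467345 in the CHI3L1 siRNA library and 15837449 in the control siRNA library. The CPM summed to 998507 in the CHI3L1 siRNA library and 1001495 in the control siRNA library, so they were not scaled by these totals alone. CHI3L1 itself stood at 48.6 CPM (947 reads) in the CHI3L1 siRNA library and 140 CPM (2215 reads) in the control siRNA library, a ratio of 0.347. Of 8 thyroid follicular markers, 6 were in the table and summed to 198 CPM in the CHI3L1 siRNA library and 184 CPM in the control siRNA library. NKX2-1 and PAX8, transcription factors of thyroid cells, had at least 71.2 CPM in both and went opposite ways. NKX2-1 stood at 112 CPM in the CHI3L1 siRNA library and 88.6 CPM in the control siRNA library, and PAX8 at 71.2 and 82.8 CPM. FOXE1 had 19 reads in the CHI3L1 siRNA library and 1 in the control siRNA library, and thyroglobulin (TG) 14 and 10. Fibroblast markers (4 of 4 in the table) summed to 49.7 CPM in the CHI3L1 siRNA library and 60.7 CPM in the control siRNA library, mostly from LUM. Endothelial markers (3 of 4) summed to 9.75 CPM in the CHI3L1 siRNA library and 11.3 CPM in the control siRNA library. They did not go the same way. PECAM1 had 74 reads in the CHI3L1 siRNA library and 116 in the control siRNA library, KDR 79 and 39, and VWF 37 and 23. Of 5 immune markers, 1 was in the table, PTPRC, at 0.410 CPM in the CHI3L1 siRNA library and 0.759 CPM in the control siRNA library. The part of such differences in the results was not tested. In bulk RNA, more cells that express a gene and more RNA per cell cannot be told apart.

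KISS1R was higher in the CHI3L1 siRNA library, and so were ADCY8, ADCY1 and ADCY9, each by at least 1.5-fold. ADCY6 and ADCY7 stood at 1.35 and 1.37 times their level in the control siRNA library, and ADCY3 was at nearly the same level in both libraries. The log2 fold used throughout is CHI3L1 siRNA over control siRNA after adding 1 CPM to each value, which understates differences of low genes. Intervals of ratios and of levels are exact 95% intervals of the read counts and cover counting error only. By this rule of 1.5-fold, 3 of the 6 cyclase genes were higher and 0 lower. Of all 14815 genes that averaged 1 CPM or more, 7.73% were higher and 13.4% lower by the same rule. At 2-fold, 1 of the 6 cyclase genes (ADCY8) was higher and 0 lower, where 1.03% of all genes were higher and 4.41% lower. The median log2 fold was 0.65 for the 6 cyclase genes and 0.01 over all these genes. Since the members were chosen with these values known, nothing is read from their count against that share.

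**Figure D1:**
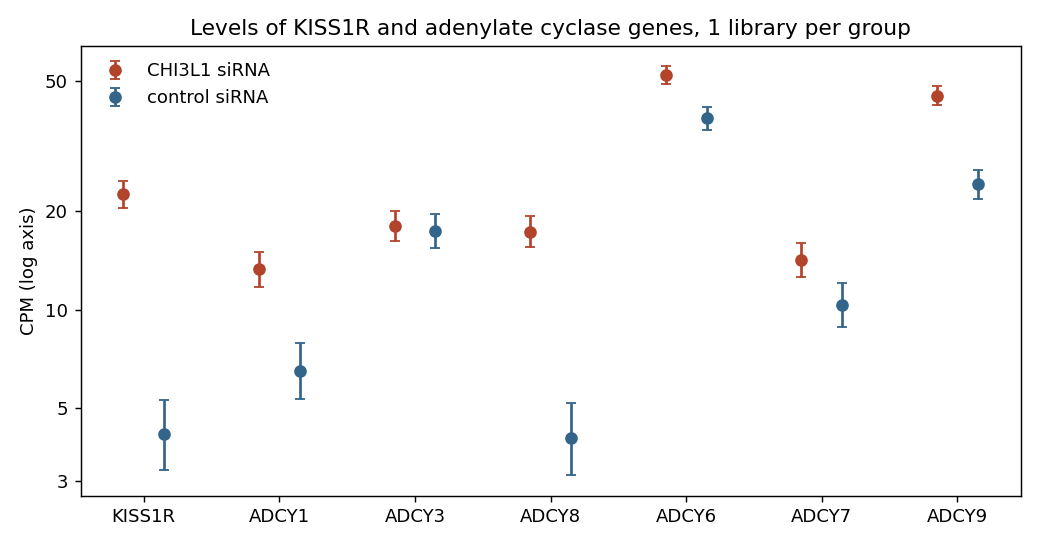
Levels in CPM (log axis) of KISS1R and the 6 adenylate cyclase genes in the CHI3L1 siRNA library (red) and the control siRNA library (blue), 1 library per group, with exact 95% Poisson intervals of the reads as bars. The intervals of the libraries do not overlap for KISS1R, ADCY1, ADCY8, ADCY6, ADCY7 and ADCY9, and those of ADCY3 do.

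KISS1R (ENSG00000116014) is protein coding, has 5 exons in its annotated transcript, and lies on the plus strand of chromosome 19, from 917287 to 921015 in GRCh38. It had 439 reads (22.5 CPM) in the CHI3L1 siRNA library and 66 reads (4.17 CPM) in the control siRNA library. The CPM ratio was 5.39 (4.16 to 7.10) and the log2 fold 2.18. This was the highest log2 fold, rank 1 of the 14815 genes. No exon of another gene in the table overlaps an exon of KISS1R. The nearest genes in the table that averaged 1 CPM or more were R3HDM4, 4042 bp away at 63.0 CPM in the CHI3L1 siRNA library and 54.6 CPM in the control siRNA library, and ARID3A, 4766 bp away on the other side at 24.5 CPM in the CHI3L1 siRNA library and 19.0 CPM in the control siRNA library. Both neighbours had log2 folds of at most 0.35. KISS1, the gene of the receptor's ligand, was not among the gene symbols of the table, so no level is given for it.

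Among 4038 genes with a mean CPM within 2-fold of that of KISS1R, the median log2 fold was 0.002. That none of them had a higher log2 fold follows from the rank of 1 that KISS1R has over all genes. The 3 named genes in that range with the nearest log2 folds, over the 2 libraries, were ADCY8 (1.86, a difference of 0.323 from KISS1R), CDH11 (1.60, a cadherin of mesenchymal cells) and LPL (1.45, lipoprotein lipase). Nearness of a fold over 2 libraries is a description of size alone.

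ADCY1, ADCY3 and ADCY8 form the group of cyclases that calcium and calmodulin can stimulate. ADCY8 (ENSG00000155897, chromosome 8, minus strand, 130780301 to 131042426), known mainly from the brain, had 338 reads (17.3 CPM) in the CHI3L1 siRNA library and 64 reads (4.05 CPM) in the control siRNA library. Its CPM ratio was 4.28 (3.27 to 5.69) and its log2 fold 1.86, rank 6 of 14815. That interval overlaps the interval of KISS1R and lies above those of the other 5 cyclase genes. The nearest genes in the table that averaged 1 CPM or more were ASAP1, 336641 bp away, and EFR3A, 861662 bp away on the other side. Their log2 folds were 0.26 and −0.02.

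ADCY1 (ENSG00000164742, chromosome 7, plus strand, 45574140 to 45723116), also described mainly in neurons, had 259 reads (13.3 CPM) in the CHI3L1 siRNA library and 103 reads (6.51 CPM) in the control siRNA library. The ratio was 2.04 (1.62 to 2.59) and the log2 fold 0.93, rank 223. The third of this group did not share the difference. ADCY3 (ENSG00000138031, chromosome 2, minus strand, 24819169 to 24919839), the cyclase of olfactory cilia, had 352 reads (18.1 CPM) in the CHI3L1 siRNA library and 275 reads (17.4 CPM) in the control siRNA library. Its ratio was 1.04, with an interval (0.884 to 1.22) that holds 1 and ends below 1.5. The calcium-stimulated group therefore held the largest and the smallest ratio among the 6 cyclase genes.

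**Figure D2:**
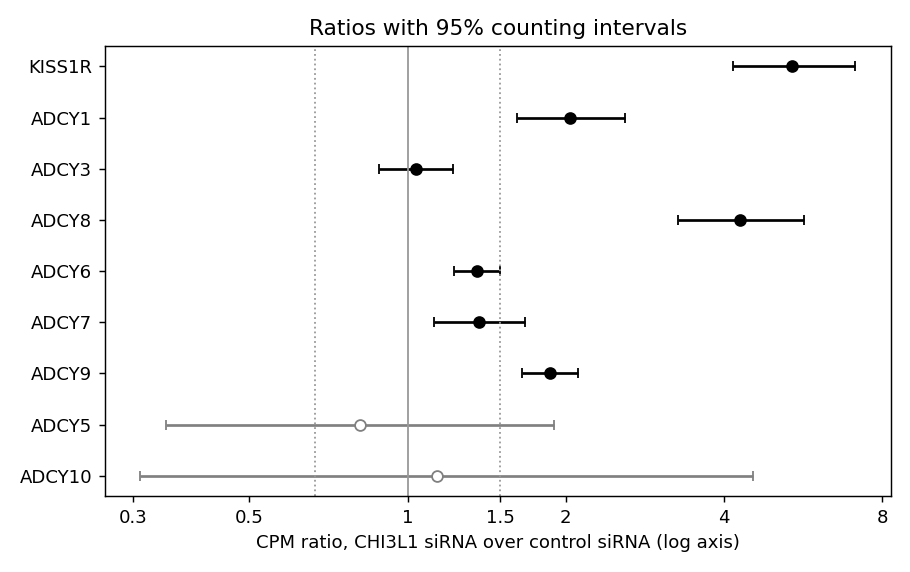
CPM ratio of the CHI3L1 siRNA library over the control siRNA library (log axis) for KISS1R, the 6 cyclase genes and, as open circles, the cyclase genes ADCY5 and ADCY10 with a mean under 1 CPM. Bars are exact 95% intervals of the reads, the solid line marks a ratio of 1 and the dotted lines 1.5-fold either way, and the intervals of KISS1R, ADCY1, ADCY8 and ADCY9 lie wholly above 1.5.

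ADCY6 belongs with ADCY5 to the group that calcium and inhibitory G proteins restrain. ADCY6 (ENSG00000174233, chromosome 12, minus strand, 48766194 to 48789037) had the most reads of the cyclase genes, 1018 (52.2 CPM) in the CHI3L1 siRNA library and 610 (38.6 CPM) in the control siRNA library. The ratio was 1.35 (1.22 to 1.499) and the log2 fold 0.43, below the 1.5-fold rule. ADCY5 had 13 reads in each library, under 1 CPM in both, and a ratio of 0.811 whose interval (0.346 to 1.90) held both 1 and 1.5. At that depth a difference of the size seen at ADCY6 or ADCY7 was not detectable.

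ADCY7 is one of the cyclases that G beta-gamma subunits stimulate, and it is abundant in blood cells. ADCY7 (ENSG00000121281, chromosome 16, plus strand, 50246137 to 50318135) had 277 reads (14.2 CPM) in the CHI3L1 siRNA library and 164 reads (10.4 CPM) in the control siRNA library, a ratio of 1.37 (1.12 to 1.67). Its value is uncertain, since its exons overlap those of BRD7 on the opposite strand over up to 2179 nt and the strand setting of the counting is not given. BRD7 had more reads than ADCY7, 840 in the CHI3L1 siRNA library and 638 in the control siRNA library. An exon of ADCY3 overlaps one of CENPO on the opposite strand by 761 nt, with 342 CENPO reads in the CHI3L1 siRNA library and 244 in the control siRNA library. KISS1R, ADCY1, ADCY6, ADCY8 and ADCY9 have no such overlap with a gene of the table.

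ADCY9 is a widely expressed cyclase that forskolin stimulates poorly or not at all. ADCY9 (ENSG00000162104, chromosome 16, minus strand, 3953387 to 4116185) had 881 reads (45.2 CPM) in the CHI3L1 siRNA library and 383 reads (24.2 CPM) in the control siRNA library. The ratio was 1.87 (1.65 to 2.11) and the log2 fold 0.87, rank 292 of 14815. Its difference in CPM was the largest of the 6 cyclase genes, although its ratio was below those of ADCY8 and ADCY1.

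Genes in the table have at least 6 reads in at least 1 library. ADCY10, the soluble cyclase that bicarbonate stimulates, lay just inside that limit, with 7 reads in the CHI3L1 siRNA library and 5 in the control siRNA library. The lowest mean among the 6 cyclase genes was 9.90 CPM (ADCY1), and the highest among those left out was 0.744 CPM (ADCY5). ADCY2 and ADCY4 were not among the gene symbols of the table, so no level is given for them.

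Levels of different genes were compared per kb of annotated transcript. In the CHI3L1 siRNA library the order of the cyclase genes was ADCY6 (8.08 CPM per kb), ADCY9 (5.85), ADCY3 (3.57), ADCY8 (2.92), ADCY7 (2.31) and ADCY1 (1.06). In the control siRNA library it was ADCY6 (5.97 CPM per kb), ADCY3 (3.44), ADCY9 (3.13), ADCY7 (1.69), ADCY8 (0.682) and ADCY1 (0.521). Counting intervals of neighbours in the order overlapped for ADCY3 and ADCY8 in the CHI3L1 siRNA library, and for ADCY3 with ADCY9 and ADCY8 with ADCY1 in the control siRNA library. The other neighbours were apart by more than counting error. Both orders were the same with the length of all annotated exons in place of 1 transcript.

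**Figure D3:**
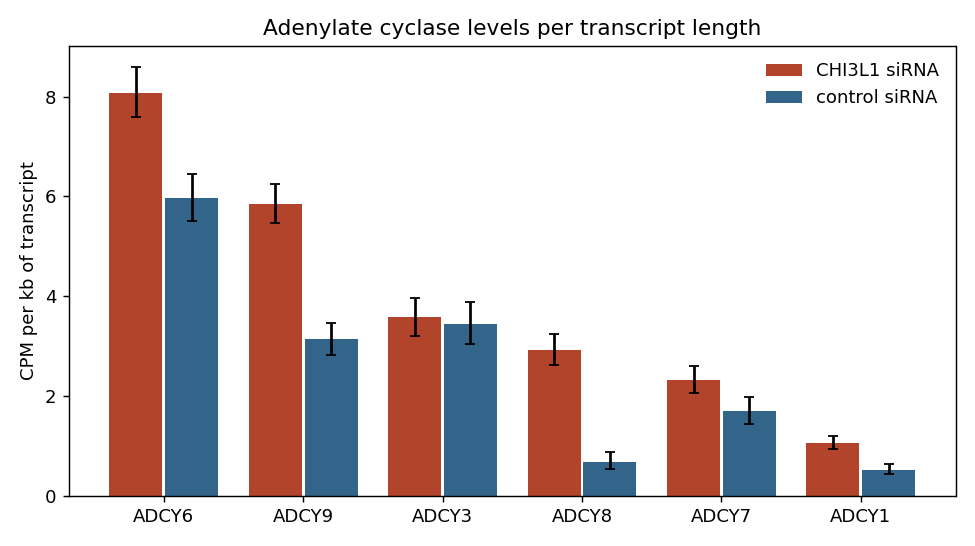
Level of each cyclase gene in CPM per kb of its annotated transcript in the CHI3L1 siRNA library (red, left bar) and the control siRNA library (blue, right bar), 1 library per group, with exact 95% Poisson intervals. ADCY6 was the highest in both libraries, and ADCY8 stood at 2.92 CPM per kb in the CHI3L1 siRNA library against 0.682 in the control siRNA library.

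Summed over the 6 cyclase genes, the level was 160 CPM in the CHI3L1 siRNA library and 101 CPM in the control siRNA library, a ratio of 1.58, or 1.47 without ADCY8. On the per-kb scale, ADCY8 made up 12.3% of the summed cyclase level in the CHI3L1 siRNA library and 4.42% in the control siRNA library. The share of ADCY6 was 33.9% in the CHI3L1 siRNA library and 38.6% in the control siRNA library, and that of ADCY3 15.02% in the CHI3L1 siRNA library and 22.3% in the control siRNA library. ADCY6 thus held the largest share in both libraries. KISS1R stood at 13.9 CPM per kb in the CHI3L1 siRNA library, above every cyclase gene there, and at 2.57 CPM per kb in the control siRNA library, below ADCY6. Its order against ADCY3 (3.44 CPM per kb) and ADCY9 in the control siRNA library was within counting error, and that against ADCY9 turned round with the length of all annotated exons (2.48 CPM per kb for KISS1R and 2.34 for ADCY9).

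Folds of all coding genes followed transcript length in these libraries. The 6 cyclase genes have annotated transcripts of 5050 to 12503 nt, a range where most genes leaned higher in the CHI3L1 siRNA library. Of 2094 coding genes with transcripts above 5000 and up to 8000 nt, 15.4% were past 1.5-fold upwards and 3.58% downwards, with a median log2 fold of 0.27. Of 937 genes above 8000 nt these shares were 19.9% and 3.20%. KISS1R, at 1625 nt and 68.2% GC, lies among shorter transcripts, where folds leaned the other way. Of 2497 genes above 1000 and up to 2000 nt, 2.84% were past 1.5-fold upwards and the median was −0.24.

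After a smooth trend in transcript length, coding length and GC content was subtracted, the median log2 fold of the fitted genes was added back. KISS1R then had a log2 fold of 2.35 and ADCY8 of 1.48, both still past 1.5-fold. ADCY9 and ADCY1 had corrected log2 folds of 0.43 and 0.42, no longer past 1.5-fold. ADCY6 (0.02), ADCY7 (0.02) and ADCY3 (−0.28) were at or below 0.07, the median of all corrected genes. The median of the 6 cyclase genes was then 0.22, and 1 of 6 was at least 1.5-fold higher. Among genes with a transcript within 1.2-fold of its own length, 0 of 1816 had a higher uncorrected log2 fold than ADCY8. For KISS1R it was 0 of 1648, which follows from its rank of 1 over all genes. For ADCY1 and ADCY9, 12 of 332 and 46 of 1084 such genes had a higher uncorrected log2 fold. The part that transcript length has in these differences was not tested further.

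**Figure D4:**
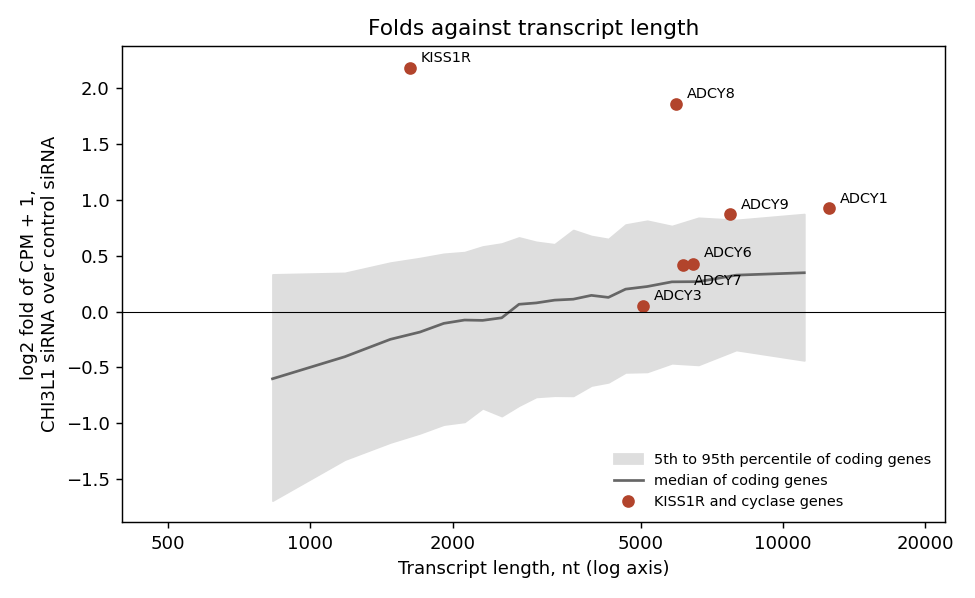
Log2 fold of CPM + 1, CHI3L1 siRNA over control siRNA, against transcript length (log axis). The grey line and band are the median and the 5th to 95th percentiles of coding genes in 20 bins of length, and the red points are the members, with KISS1R (2.18) and ADCY8 (1.86) far above the band and ADCY3 (0.05) below the median of its length.

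Of the 7 genes, 3 have a promoter in the RefSeq table for GRCh38.p14 (ADCY1, ADCY3 and ADCY7). The windows of ADCY1 and ADCY3 are shown because these genes are in the same calcium-stimulated group and had ratios of 2.04 and 1.04. Each is the 250 bases before the most upstream RefSeq start, read 5′ to 3′ on the gene's strand. Capitals mark TGACG on either strand, the shorter form of the cyclic AMP response element TGACGTCA, which holds TGACG within it. The ADCY1 window is chr7:45573890-45574139 on the plus strand and the ADCY3 window chr2:24920238-24920487 on the minus strand.
ADCY1: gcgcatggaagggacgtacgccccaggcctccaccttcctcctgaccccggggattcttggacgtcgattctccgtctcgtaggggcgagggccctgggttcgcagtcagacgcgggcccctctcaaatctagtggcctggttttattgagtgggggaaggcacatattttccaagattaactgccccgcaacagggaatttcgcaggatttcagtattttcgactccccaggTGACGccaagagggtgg
ADCY3: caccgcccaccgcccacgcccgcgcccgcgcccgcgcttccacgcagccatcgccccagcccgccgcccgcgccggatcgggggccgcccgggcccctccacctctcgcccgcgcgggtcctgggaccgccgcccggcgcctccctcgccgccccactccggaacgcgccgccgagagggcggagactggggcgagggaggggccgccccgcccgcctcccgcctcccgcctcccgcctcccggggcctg
The ADCY1 window has 1 match to TGACG, beginning 17 bases before the start, and 58.4% GC. The ADCY3 window has 0 matches and 85.2% GC. None of the windows of ADCY1, ADCY3 and ADCY7 has the full TGACGTCA. Of 27305 promoters of the same length in the table, 21.6% hold TGACG on at least 1 strand and 1.75% hold TGACGTCA. A match of these letters is a description of the window and no sign of binding.

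Genes around the receptor and the cyclases were taken from 11 lists of kisspeptin and cyclic AMP signalling. Beside the members, 84 of the 111 listed genes averaged 1 CPM or more. Of these, 7 (8.33%) were past 1.5-fold upwards and 5 (5.95%) downwards, near or under the 7.73% and 13.4% of all genes. Their median log2 fold was 0.16. None of them had a log2 fold above 0.92 (ITPR1). The 12 genes past 1.5-fold are given here by step of the pathway.

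On the receptor's Gq side, 3 of 13 genes other than KISS1R were higher and 0 lower. Of all genes, 7.73% were higher and 13.4% lower. The 3 higher genes have transcripts of 6539 to 9767 nt. Above 5000 and up to 8000 nt 15.4% of coding genes were higher, and above 8000 nt 19.9%. ITPR1, the type 1 calcium release channel gated by inositol trisphosphate, stood at 168 CPM in the CHI3L1 siRNA library and 88.5 CPM in the control siRNA library, a ratio of 1.90 (1.78 to 2.02). PRKCB, a calcium-dependent protein kinase C, stood at 23.7 CPM in the CHI3L1 siRNA library and 13.7 CPM in the control siRNA library, and GNAQ, the Gq alpha subunit, at 85.0 CPM in the CHI3L1 siRNA library and 54.6 CPM in the control siRNA library. Corrected for length and GC content, the log2 folds were 0.72 for GNAQ, 0.49 for ITPR1 and 0.38 for PRKCB. ITPR1 and PRKCB were then no longer past 1.5-fold. GNA14, with a CPM ratio of 1.64, was past 1.5-fold with the correction, at 0.60, and short of it without, at 0.55. With a pseudocount of 0.5 CPM, 5 genes of this list, KISS1R included, were higher, against 4. The phospholipase C beta genes PLCB1, PLCB3 and PLCB4 had log2 folds of 0.01, 0.23 and −0.02. The ratio of PLCB3 was 1.18 (1.08 to 1.29). Of 7 receptor kinases and arrestins, 0 were higher and 0 lower, and the largest absolute log2 fold was that of GRK6 (−0.58). With the length and GC correction GRK6 was at −0.66, and 1 of the 7 was then past 1.5-fold downwards. A pseudocount of 0.5 CPM and centring on genes that average 50 CPM or more also gave 1 lower.

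G proteins and receptors feed the cyclases. Of 7 Gs and Gi alpha subunit genes and their chaperones, 0 were past 1.5-fold, with GNAS, the stimulatory alpha subunit, at 454 CPM in the CHI3L1 siRNA library and 330 CPM in the control siRNA library (ratio 1.38). GNAI2, an inhibitory alpha subunit, had a log2 fold of 0.34. None of the 5 G beta genes was past 1.5-fold, with log2 folds between −0.18 (GNB3) and 0.25 (GNB4). Of 10 Gs-coupled receptor genes, 0 were higher and 1 lower, beside 7.73% and 13.4% of all genes. That gene was CALCRL, part of the receptor of adrenomedullin, with 35 reads in the CHI3L1 siRNA library and 53 in the control siRNA library and a ratio of 0.536 (0.339 to 0.836). Its log2 fold was −0.64, and −0.18 after the length and GC correction, no longer past 1.5-fold. TSHR, the receptor of thyroid-stimulating hormone, stood at 9.23 CPM in the CHI3L1 siRNA library and 8.73 CPM in the control siRNA library.

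Downstream of cyclic AMP the genes past 1.5-fold lay on both sides of 0. Of 11 phosphodiesterase genes, which break cyclic AMP down, 3 were higher and 1 lower, beside 7.73% and 13.4% of all genes. The count higher was 0 with a pseudocount of 10 CPM, 0 among genes averaging 10 CPM or more and 1 with centring. PDE1A, a phosphodiesterase that calcium and calmodulin stimulate, stood at 12.1 CPM in the CHI3L1 siRNA library and 25.4 CPM in the control siRNA library, a ratio of 0.477 (0.405 to 0.562). PDE2A was higher, with 37 reads in the CHI3L1 siRNA library and 10 in the control siRNA library, a ratio of 3.001 (1.46 to 6.77). It averaged 1 CPM or more only through the CHI3L1 siRNA library (1.90 CPM, and 0.632 CPM in the control siRNA library). PDE3A (ratio 1.65) and PDE4B (1.64) were also higher, and both had intervals that held 1.5. Of these, PDE2A is the one stimulated by cyclic GMP and PDE3A the one inhibited by it. Of the 3, none was past 1.5-fold after the length and GC correction, at 0.56, 0.37 and 0.45, and PDE7A, named after its value was seen, was at 0.75.

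None of 7 protein kinase A genes was past 1.5-fold, and 1 of the 7 was lower with centring. For each list here, the shares of all genes were 7.73% higher and 13.4% lower. The regulatory subunit gene PRKAR1B had a ratio of 1.49 (1.252 to 1.77), and PKIG, an inhibitor of the kinase, 0.670 (0.618 to 0.726). After the length and GC correction 1 of the 7 was past 1.5-fold, the inhibitor gene PKIA, whose log2 fold turned to 0.72 with the correction and was −0.33 without it. The log2 fold of PKIG was 0.08 with the correction and −0.57 without it. Of 11 kinase-anchoring genes, AKAP12, a scaffold at the plasma membrane, was higher at 298 CPM in the CHI3L1 siRNA library and 195 CPM in the control siRNA library, and AKAP5, which in neurons places cyclases and the kinase at the same sites, was lower with 50 reads in the CHI3L1 siRNA library and 85 in the control siRNA library. With the correction, the log2 fold of AKAP12 was 0.23, no longer past 1.5-fold, and that of AKAP5 −0.67. With centring, 0 of the 11 were higher. Among 5 other effectors, POPDC3, a cyclic AMP-binding Popeye protein, was lower, with 16.9 CPM in the CHI3L1 siRNA library and 33.8 CPM in the control siRNA library. RAPGEF3, the exchange factor EPAC1, had a log2 fold of −0.58, just short of 1.5-fold. The correction exchanged the calls of these genes, with log2 folds of −0.43 for POPDC3 and −0.93 for RAPGEF3.

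Of 8 genes of cyclic AMP response transcription factors and coactivators, 0 were higher and 1 lower, beside 7.73% and 13.4% of all genes. With centring, 2 of the 8 were lower. The 1 lower in the main comparison was the transcription factor CREM, whose gene also makes the repressor ICER. It stood at 25.7 CPM (501 reads) in the CHI3L1 siRNA library and 51.2 CPM (809 reads) in the control siRNA library, a ratio of 0.502 (0.448 to 0.562) and a corrected log2 fold of −0.61. ATF1 had a log2 fold of −0.55, which turned to 0.28 with the correction, and CREB1 had 0.12. The coactivators CREBBP and EP300 had log2 folds of 0.48 each, and −0.008 and 0.001 after the length and GC correction. Reads of ITPR1, PDE7A, GRK6, RAPGEF3, PRKAR1B, PKIG, GNB3 and GNAS are uncertain, since each has an exon that overlaps an exon of a gene on the opposite strand.

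**Figure D5:**
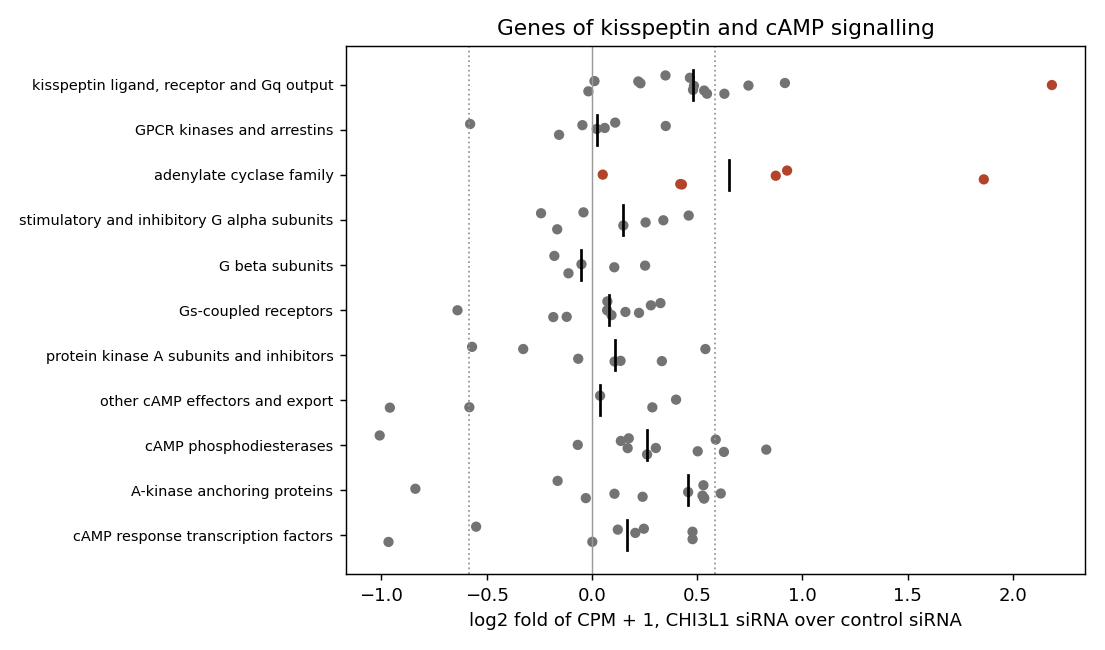
Log2 folds of CPM + 1, CHI3L1 siRNA over control siRNA, for the genes of each list that averaged 1 CPM or more, with the list's median as a black bar, the members in red and 1.5-fold as dotted lines. KISS1R at 2.18 and ADCY8 at 1.86 lie apart from all other listed genes, which run from −1.01 (PDE1A) to 0.93 (ADCY1).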

How the data were processed

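RNA of 2 libraries was sequenced after Trizol extraction and TruSeq RNA library preparation, per the labels' protocols. The authors deposited 1 table of CPM for 19362 genes. FastQC, MultiQC, Trimmomatic, HISAT2, featureCounts and GRCh38 are named in the submitters' processing notes. The normalisation tool, strand setting and annotation release were not given in the sources used here. Dividing each CPM by a step per library (0.0513 CPM per read for CHI3L1 siRNA and 0.0632 for control siRNA) and subtracting 0.001 gave the reads, and 100% of values were whole within 0.05 read. No count model was run. Symbols matched for 19265 identifiers, and coordinates and transcripts came from GENCODE release 29.

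Members, lists and naming rule (every member, up to 4 largest absolute folds per list, the 3 genes nearest KISS1R, and CHI3L1) were chosen with earlier results of these data known. A few further genes were named with their values in view. Ratio intervals are Clopper-Pearson, conditional on both libraries' reads, and PCR reads without molecular identifiers are not independent. The length and GC trend was a spline (5 degrees of freedom per term, statsmodels 0.14.6) fitted to 12568 coding genes outside the lists, and took up 36.1% of the variance of their log2 folds. Alternatives were other pseudocounts, mean filters, scalings (centring, a trimmed mean of log ratios) and a 2-fold rule. Calls and intervals were tested on simulated data (Python 3.11.15, scipy 1.17.1).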

Additional observations from a re-analysis of the deposited data

How the results depend on the processing

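KISS1R stayed at least 1.5-fold higher in the CHI3L1 siRNA library under each of the 5 alternatives that can alter a gene's fold (the filters and the 2-fold rule cannot), with log2 folds from 1.198 (pseudocount of 10 CPM) to 2.35 (length and GC correction). A pseudocount of 10 CPM pulls low genes towards 0 by construction. The count of cyclase genes higher was 2 at a pseudocount of 10 CPM and 2 among genes averaging 10 CPM or more, against 3. Of the 6 cyclase genes, 1 was higher under the length and GC correction and 1 at 2-fold. Their median log2 fold was 0.43 at 10 CPM, 0.43 among genes averaging 10 CPM or more, where ADCY1 drops out, and 0.22 under the correction. Of the other listed genes, those higher numbered 2 at 10 CPM, 4 among genes averaging 10 CPM or more, 3 with centring on genes that average 50 CPM or more (which put the median of all genes at −0.09), 0 at 2-fold and 4 under the correction. Those lower numbered 3, 3, 9 and 1 under the first 4 of these. Of 30 log2 folds of the 6 cyclase genes under those 5, 21 stayed inside their counting interval and 9 moved out of it, and 0 with a fold past 1.5 changed sign. ADCY3, within 1.5-fold throughout, changed sign with centring (−0.05) and under the correction (−0.28). No paired analysis was possible because each group has 1 library. Leaving out a library would leave no comparison. Counting error limits ADCY5 and ADCY10 most.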
